A study of Mus musculus with 21 samples.

Results

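Integrins are the adhesion receptors by which cells hold on to the extracellular matrix. Each is a pair of an α and a β subunit, and the pair decides which ligand is bound. The 10 subunits described here were taken by gene symbol from the deposited gene table and exclude the α6β4 receptor of the hemidesmosome: *Itga1*, *Itga2*, *Itga3*, *Itga5*, *Itgav*, *Itgb1*, *Itgb3*, *Itgb5*, *Itgb6* and *Itgb8*. All 10 passed the filter on low counts, among 19315 genes tested of the 38730 with a count in any tumor. As background, the β1 subunit pairs with α1 and α2 to bind collagens, with α3 to bind laminins and with α5 to bind fibronectin. The αv subunit pairs with β1, β3, β5, β6 or β8, and these pairs read an Arg-Gly-Asp motif in ligands such as vitronectin, fibronectin and the latent form of TGF-β. In the mammary gland β1 integrins anchor the basal cell layer to the basement membrane, and integrin clusters recruit talin and focal adhesion kinase.

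RNA of 21 mouse mammary tumors was sequenced in bulk, 9 from NeuNT control mice and 12 from the RhoC cohort. All mice carried FloxNeoNeuNT, an activated Neu allele placed in the *Erbb2* locus behind a stop that Cre removes, together with MMTV-CreNLST, which drives Cre from a mammary tumor virus promoter. Of the controls, 7 also carried Gata4(loxP/+) and 2 (N-15 and N-17) did not. Tumors of the RhoC cohort had the genotype R26(RhoC/+);FloxNeoNeuNT;MMTV-CreNLST, in which Cre also switches on a mouse *RhoC* coding sequence in the R26 locus. Ages are not given in the labels. Each control tumor came from a different mouse, but the 12 RhoC tumors came from 8 mice, as R-6 and R-7 share mouse N9255 and R-13, R-14, R-15 and R-16 share mouse P497. The labels name no mouse for R-18, which was counted as a mouse of its own, and they give R-21 a mouse that the study lists for another tumor. P-values therefore rest on tumors that are not all independent. The total count per tumor was between 47309780 and 100741339.

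*Rhoc* itself did not separate the cohorts, at 25.98 to 172 CPM (median 50.7) in controls, where CPM is the count per 1000000 of the TMM-scaled library, and 22.8 to 148 (median 88.2) in RhoC tumors (log2 fold change 0.19 ± 0.34 SE, edgeR adjusted p = 0.774). *Erbb2* lay between 57.9 and 2725 CPM in controls and between 256 and 1851 CPM in RhoC tumors. *Gata4* reached 50.04 CPM in the highest control, but its median was 0.018 CPM in controls and 0 CPM in RhoC tumors (at most 5.51 CPM). The epithelial genes *Epcam* (202 to 960 CPM) and *Cdh1* (482 to 1205 CPM) were present in every tumor. The summed level of 5 skeletal muscle markers was 4005 CPM in N-17, 615 CPM in R-10, 375 CPM in N-3 and 327 CPM in R-1. Histology codes came from the study's own table and not from the labels, so tumors are compared by histology without a test: 3 RhoC tumors (R-6, R-13 and R-14) were coded squamous cell carcinoma (SCC), and no control was. No code is given for N-17, R-18 and R-21, which stand here among the tumors not coded SCC. In bulk tissue, fewer cells of a type and less RNA per cell cannot be told apart.

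Promoter sequence is shown for *Itga2*, *Itga3* and *Itga5*, whose levels ran together across the tumors, and for *Itga1*, which lies next to *Itga2* on chromosome 13 and did not follow it. The sequences are RefSeq windows on GRCm38.p6, read 5′ to 3′ on the gene's own strand, from 250 bases before the start to 50 after it. Capitals mark GGGCGG, the core of an Sp1 site, on either strand (CCGCCC on the other).
Itga2 promoter, chr13:114932051-114932350, minus strand: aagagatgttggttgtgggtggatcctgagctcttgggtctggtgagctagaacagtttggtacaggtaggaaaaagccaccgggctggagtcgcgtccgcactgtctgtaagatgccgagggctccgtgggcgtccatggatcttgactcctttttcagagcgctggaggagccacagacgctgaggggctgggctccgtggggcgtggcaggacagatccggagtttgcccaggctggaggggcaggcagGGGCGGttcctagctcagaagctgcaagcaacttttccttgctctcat
Itga3 promoter, chr11:95076665-95076964, minus strand: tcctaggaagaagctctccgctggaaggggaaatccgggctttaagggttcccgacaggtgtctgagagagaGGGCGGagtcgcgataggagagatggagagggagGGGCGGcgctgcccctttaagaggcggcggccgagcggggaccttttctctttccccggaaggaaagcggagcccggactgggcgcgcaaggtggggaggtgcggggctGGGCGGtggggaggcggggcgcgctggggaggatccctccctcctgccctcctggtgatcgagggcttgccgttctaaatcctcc
Itga5 promoter, chr15:103366742-103367041, minus strand: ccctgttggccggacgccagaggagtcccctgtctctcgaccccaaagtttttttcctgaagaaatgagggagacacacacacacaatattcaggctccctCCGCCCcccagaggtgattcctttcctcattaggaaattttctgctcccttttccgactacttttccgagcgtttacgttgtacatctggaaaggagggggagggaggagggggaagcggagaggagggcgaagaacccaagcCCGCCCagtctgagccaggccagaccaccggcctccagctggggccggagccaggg
Itga1 promoter, chr13:115101915-115102214, minus strand: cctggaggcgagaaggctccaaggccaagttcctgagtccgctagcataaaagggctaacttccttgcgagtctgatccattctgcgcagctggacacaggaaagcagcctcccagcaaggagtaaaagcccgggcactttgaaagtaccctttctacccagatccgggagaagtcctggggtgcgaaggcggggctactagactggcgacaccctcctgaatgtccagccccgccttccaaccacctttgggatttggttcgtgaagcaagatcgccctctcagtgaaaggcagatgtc
The motif stood 1 time in the *Itga2* window, 3 times in that of *Itga3* and 2 times in that of *Itga5*, and the *Itga1* window held none. A window was found for 9 of the 10 members, 11 windows in all (*Itga3* and *Itgb6* have more than 1), and none for *Itgb3*. GGGCGG was in 7 of these 11 windows and in 35.7% of all 32851 promoter windows of the same length. Outside the windows shown it stood in those of *Itgb5* (3 times), *Itgav* (1) and *Itgb1* (1), and in the other *Itga3* window (1). The level of *Itgb5* had a Pearson r of 0.14 with that of *Itga2*, so the motif was not particular to the subunits that ran together. A link between the motif and the levels was not tested. An AP-1 motif (TGANTCA) was in 1 of the 11, a second *Itga3* window, against 7.81% of all windows. A TEAD motif (GGAATG) was in 1, that of *Itgb1*, against 14.7%, and a RUNX motif (TGTGGT) was in 1, the second *Itga3* window, against 16.8%. All motifs were searched on both strands, and none of the matches overlapped another. GC content was 59.3% in the *Itga2* window, 66.7% in the *Itga3* window shown, 58.7% for *Itga5* and 56.7% for *Itga1*.

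Levels of different subunits were compared on the authors' FPKM scale, which divides by gene length. *Itgb1* was the most abundant of the 10, with a median of 314 FPKM and a range of 164 to 903, so its lowest tumor was above every other median. The next was *Itgav* at a median of 64.5 FPKM (20.96 to 180), followed by *Itgb5* at 50.8 (21.99 to 129) and *Itga3* at 35.3 (10.3 to 506). *Itgb8* (median 20.3 FPKM), *Itgb3* (19.8), *Itga5* (9.996), *Itga1* (9.47), *Itgb6* (4.53) and *Itga2* (4.37) completed the order. *Itgb1* was above *Itgav* in 21 of 21 tumors and *Itga1* was above *Itgb6* in 19, whereas the other neighbors in the order changed places often. *Itgav* exceeded *Itgb5* in 13 tumors, *Itgb5* exceeded *Itga3* in 13, *Itgb8* exceeded *Itgb3* in 11 and *Itgb6* exceeded *Itga2* in 7. The widest ranges belonged to *Itgb3*, from 2.16 to 492 FPKM, and to *Itga2* and *Itga3*.

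**Figure D1:**
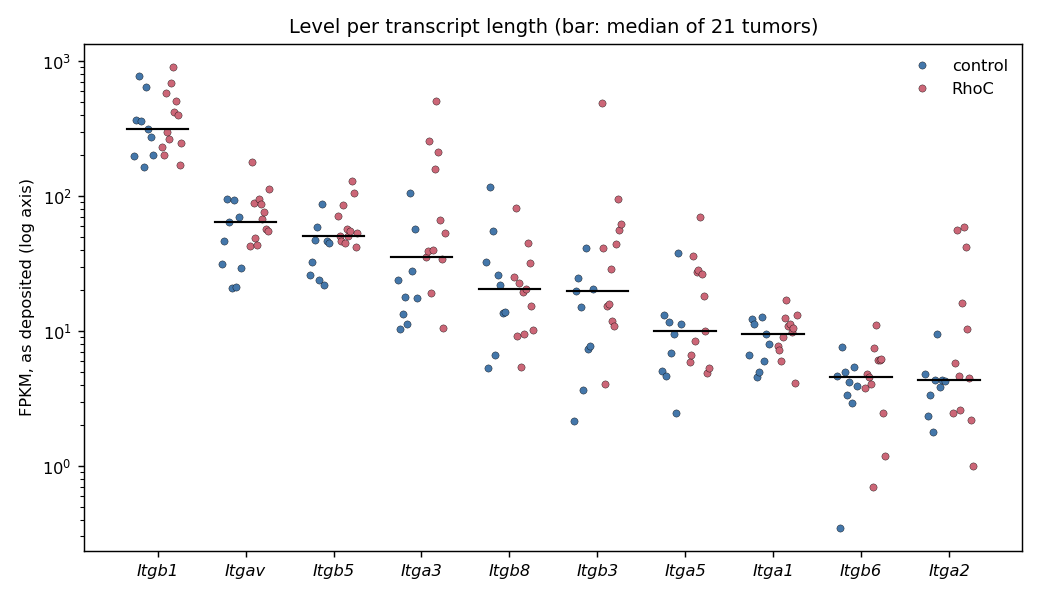
Deposited FPKM (log axis) of the 10 integrin subunits, ordered by median, with 1 point per tumor for 9 control (blue) and 12 RhoC (red) tumors and a bar at the median of all 21. *Itgb1* is highest with a median of 314 FPKM, and the highest RhoC tumors of *Itgb3* and *Itga3* reach 492 and 506 FPKM.

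The β subunits that can pair with αv were weighed against each other as shares of their summed FPKM. *Itgb1* made up 70.8% to 86.3% of the sum in controls (median 79.8%) and 28.1% to 91.6% in RhoC tumors (median 69.7%). The *Itgb3* share was 0.821% to 7.20% in controls (median 2.55%) and 0.636% to 59.9% in RhoC tumors (median 5.43%). Both RhoC extremes for *Itgb3* were single tumors, R-1 at the top and R-6 at the bottom. Leaving *Itgb1* aside, *Itgb5* was the highest β subunit in 6 of 9 controls and 8 of 12 RhoC tumors. *Itgb8* led in the other 3 controls (N-1, N-4 and N-9) and in R-2. *Itgb3* led in 3 RhoC tumors (R-1, R-18 and R-21) and in none of the controls.

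The question put to the cohorts was whether tumors with the RhoC allele differ from NeuNT controls in integrin expression. None of the 10 subunits passed an adjusted p of 0.05 in edgeR's quasi-likelihood test over all 19315 genes, in which 43 genes (0.223%) passed. That number over all genes was itself unsteady, from 14 without N-9 to 346 without N-15. Their adjusted p-values ran from 0.125 to 0.817. At an unadjusted p under 0.05, 4 subunits were higher in RhoC tumors (*Itga2*, *Itga3*, *Itgb3* and *Itgb5*) and 0 were lower, where 10.5% of all genes tested were higher and 9.93% lower by that rule. That count was 2 without the SCC tumors (*Itgb3* and *Itgb5*, where 8.06% of all genes were higher), 2 without mouse P497 (*Itga2* and *Itgb3*) and 3 under voom with mouse as a random effect (*Itgav*, *Itgb3* and *Itgb5*). The share of all genes at that unadjusted p was not computed for the last 2 fits, so those counts have no background. The log2 fold change was above 0 for 9 of the 10, against 49.6% of all genes, and the median over the 10 was 0.61, against -0.01 over all genes. Without the SCC tumors 7 of the 10 were above 0 and their median was 0.32, without mouse P497 7 were above 0 (median 0.41), and with counts summed per mouse 7 were above 0 (median 0.44). Over all genes the median in these fits was -0.016, 0.0071 and -0.025 in that order, and the share above 0 was not computed. DESeq2 on the same genes called 3 subunits as higher, *Itga2* (adjusted p = 0.0252), *Itga3* (0.0290) and *Itgb3* (0.0241), where it called 3.66% of all genes higher. Limma voom with mouse as a random effect called 0, where it called only 3 of all 19315 genes. The study picked out these same genes from these tumors, so their direction here is not independent evidence.

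**Figure D2:**
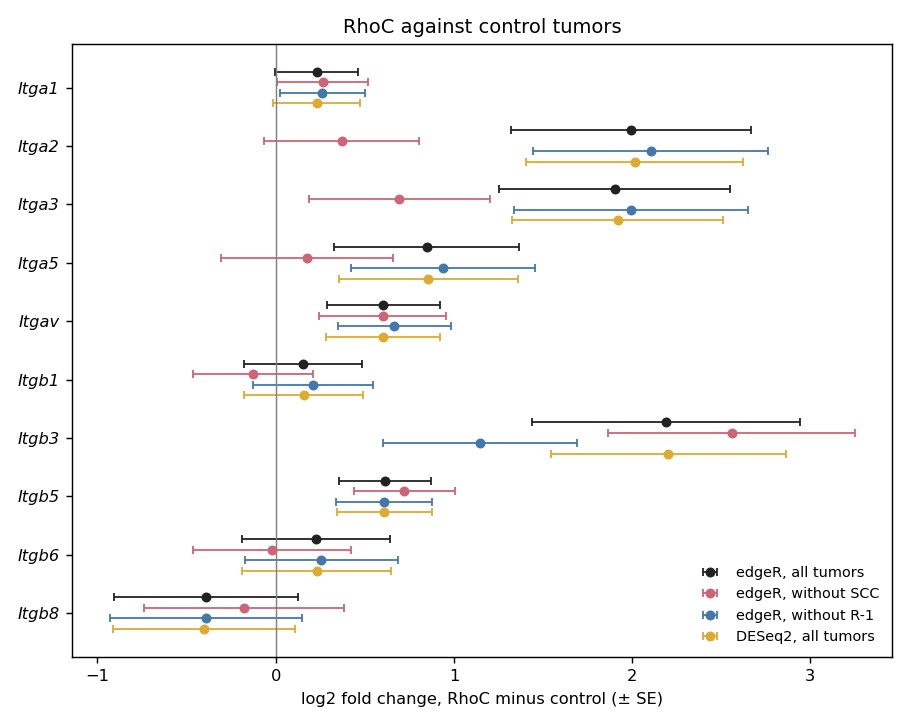
Log2 fold change (RhoC minus control, point) with its standard error (bar) for each subunit, from edgeR on all 21 tumors, edgeR without the 3 SCC tumors, edgeR without R-1, and DESeq2 on all tumors. *Itga2* falls from 1.99 to 0.37 without the SCC tumors, and *Itgb3* from 2.19 to 1.15 without R-1.

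The collagen receptors *Itga1* and *Itga2* are neighbors, with 20.996 kb between them, but only *Itga2* differed widely between tumors. *Itga2* (ENSMUSG00000015533.9, chromosome 13, 114833081 to 114932100) codes for the α2 chain of the α2β1 collagen and laminin receptor. In controls it lay between 12.7 CPM (N-6) and 67.2 CPM (N-8), with a median of 31.1. In RhoC tumors it lay between 7.30 CPM (R-21) and 417 CPM (R-13), with a median of 37.6. The 3 SCC tumors stood apart at 395 CPM (R-6), 417 CPM (R-13) and 300 CPM (R-14), and no other tumor was above 115 CPM (R-12). The cohort difference was 1.99 ± 0.67 (SE) on the log2 scale (edgeR adjusted p = 0.125), and without the SCC tumors it was 0.37 ± 0.43 (adjusted p = 0.702). With counts summed per mouse edgeR gave 1.23 ± 0.57 (adjusted p = 0.382), and limma voom with mouse as a random effect gave 0.66 ± 0.70 (adjusted p = 0.708). The 9 RhoC tumors not coded SCC had a median of 32.2 CPM, next to the 31.1 CPM of controls.

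*Itga1* (ENSMUSG00000042284.10, chromosome 13, 114953096 to 115101964), the α1 chain of the α1β1 collagen receptor, was more even. It ranged from 59.3 to 166 CPM in controls (median 106) and from 53.4 to 220 CPM in RhoC tumors (median 133), and the cohorts overlapped almost completely. Its log2 fold change was 0.23 ± 0.23, with a 95% interval from -0.25 to 0.71 (edgeR adjusted p = 0.587). The SCC tumors held 76.5 CPM (R-6), 139 CPM (R-13) and 146 CPM (R-14), inside the range of the controls. Across 21 tumors the log2 CPM of *Itga1* and *Itga2* had a Pearson r of 0.17 (Spearman 0.14). *Pelo* and *Gm10734* lie inside the span of *Itga1*, and reads that fall on more than 1 gene were not counted.

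**Figure D3:**
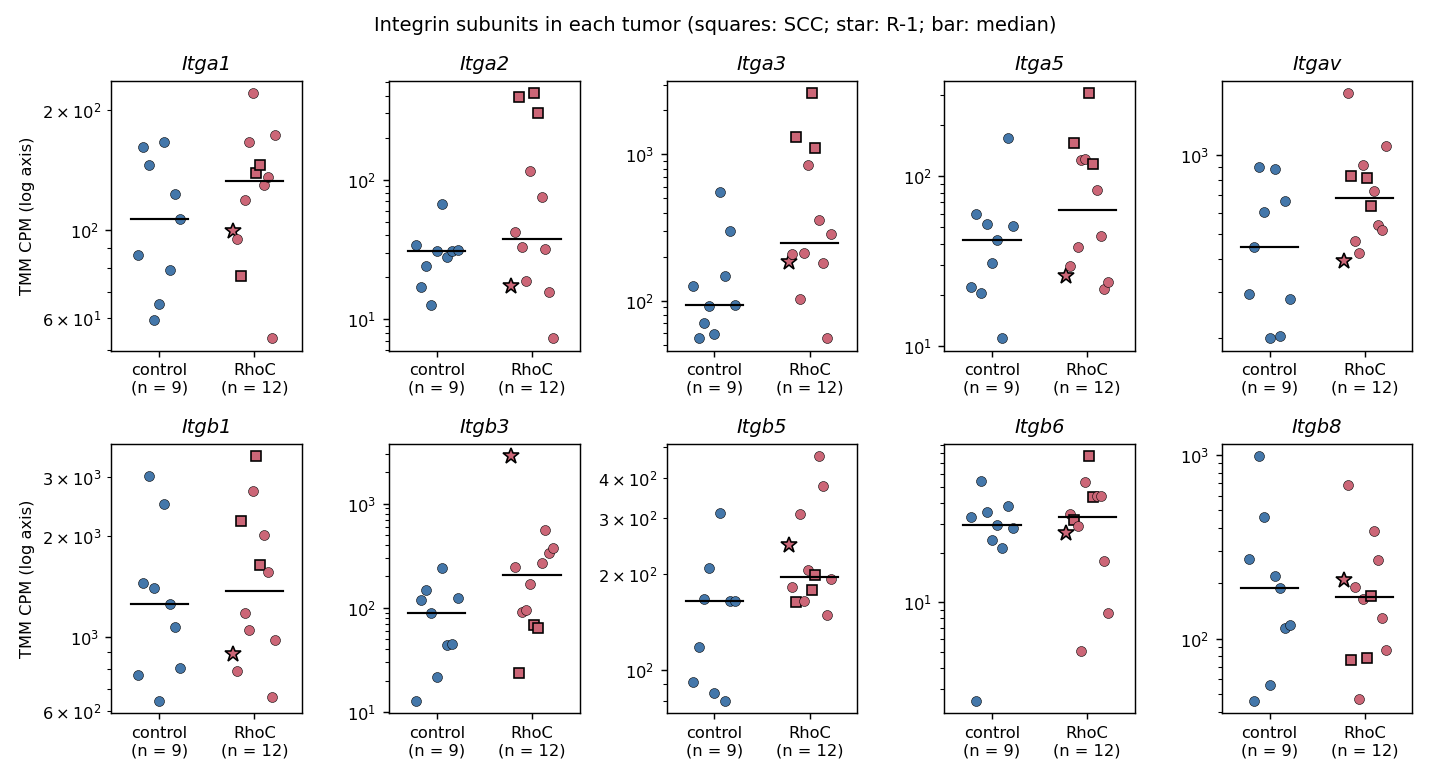
TMM-normalized CPM (log axes, a separate scale for each gene) of the 10 integrin subunits in 9 control and 12 RhoC tumors. Squares are the 3 SCC tumors, the star is R-1 and bars are medians. The SCC squares are the top 3 points for *Itga2* and *Itga3*, and R-1 is alone at 2861 CPM for *Itgb3*.

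*Itga3* (ENSMUSG00000001507.16, chromosome 11, 95044474 to 95076801), whose product pairs with β1 to bind laminin-332 and laminin-511, followed *Itga2* closely. Its level in controls was 55.3 CPM (N-3) to 552 CPM (N-8), with a median of 93.9. In RhoC tumors it was 55.9 CPM (R-18) to 2616 CPM (R-13), with a median of 250, and 11 of 12 were above the control median. Again the SCC tumors were on top, at 1322 CPM (R-6), 2616 CPM (R-13) and 1110 CPM (R-14), ahead of R-12 at 840 CPM. The log2 fold change was 1.90 ± 0.65 (edgeR adjusted p = 0.127). Without the SCC tumors it was 0.69 ± 0.51 (adjusted p = 0.514), with a median of 209 CPM in the 9 remaining RhoC tumors. With counts summed per mouse edgeR gave 1.29 ± 0.55 (adjusted p = 0.352).

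Tumors of the same mouse gave the same contrast. In mouse P497 the SCC tumors R-13 and R-14 had 417 and 300 CPM of *Itga2*, where R-15 (coded as solid nodular or poorly differentiated) had 75.3 CPM and R-16 (complex adenocarcinoma) had 32.2 CPM. For *Itga3* these 4 tumors had 2616, 1110, 354 and 180 CPM. In mouse N9255 the SCC tumor R-6 had 11.9 times the *Itga2* level of R-7 (complex adenocarcinoma) and 12.9 times its *Itga3* level. *Itgb3* ran the other way, at 0.258 times the level of R-7 in R-6 and at 0.123 and 0.116 times the level of R-16 in R-13 and R-14.

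Markers of basal and squamous epithelium moved with *Itga2* and *Itga3*. The summed level of the basal genes *Krt5*, *Krt14*, *Krt17* and *Trp63* was 5878 to 17131 CPM in the SCC tumors, 4.55 to 4220 CPM in the other RhoC tumors and 7.98 to 3004 CPM in controls. The sum of 7 squamous keratinocyte genes was 846 to 5068 CPM in SCC, 0.750 to 365 CPM in other RhoC tumors and 1.03 to 732 CPM in controls. These genes did not all go the same way: *Krt6a* was 794 to 4610 CPM in SCC and at most 530 CPM elsewhere, whereas *Krt10* was 1.09 to 2.21 CPM in SCC and up to 285 CPM elsewhere, and *Krt1* was at most 1.92 CPM in SCC and up to 45.6 CPM elsewhere. R-12, the highest tumor outside SCC for both integrins, had a basal sum of 4220 CPM. N-1, a spindle cell tumor with the highest control basal sum of 3004 CPM, had 34.2 CPM of *Itga2* and 126 CPM of *Itga3*, both within the control range. Neutrophil genes (*S100a8*, *S100a9* and *Csf3r*) summed to 56.2 to 646 CPM in SCC and to at most 33.2 CPM in other RhoC tumors and 155 CPM in controls. Platelet genes summed to 72.1 to 345 CPM in SCC and to at most 16.6 CPM elsewhere. *Ppbp* alone was 66.3 to 344 CPM in SCC and at most 6.98 CPM elsewhere, *Pf4* was 1.45 to 5.62 CPM in SCC and up to 12.4 CPM elsewhere, while *Gp9* was at most 0.349 CPM and *Gp1ba* at most 0.291 CPM in any tumor. The part of these cells in the integrin levels was not tested.

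*Itga5* (ENSMUSG00000000555.8, chromosome 15, 103344286 to 103366763), the α chain of the fibronectin receptor α5β1, was also high in SCC but not there alone. Controls ranged from 11.1 CPM (N-9) to 168 CPM (N-15), with a median of 42.3, and RhoC tumors from 21.8 CPM (R-18) to 307 CPM (R-13), with a median of 63.5. The SCC values were 157 CPM (R-6), 307 CPM (R-13) and 117 CPM (R-14). N-15, R-10 (124 CPM) and R-12 (127 CPM) were above the lowest of them. The cohort difference of 0.85 ± 0.52 did not pass (edgeR adjusted p = 0.356). It was 0.44 ± 0.52 with counts summed per mouse and 0.18 ± 0.48 without the SCC tumors. Single tumors moved it, to 1.34 ± 0.50 without N-15 (adjusted p = 0.122) and to 0.50 ± 0.47 without R-13. Against the 7 Gata4(loxP/+) controls, which leaves out N-15 and N-17, it was 1.42 ± 0.53 (adjusted p = 0.123). The log2 CPM of *Itga5* had a Pearson r of 0.59 (Spearman 0.62) with the log2 sum of 5 smooth muscle and myoepithelial markers, 0.69 (0.68) with that of the platelet markers, 0.51 (0.35) with squamous and 0.50 (0.47) with fibroblast markers. Without the SCC tumors these r were 0.64, 0.52, 0.16 and 0.50 in that order. With macrophage markers the r was 0.29 over all tumors and 0.63 without SCC. The smooth muscle and myoepithelial sum was 33.9 to 192 CPM in controls and 48.8 to 358 CPM in RhoC tumors. The part of these cells in its level was not tested.

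*Itgb1* (ENSMUSG00000025809.15, chromosome 8, 128685654 to 128733200), the shared partner of all these α chains, did not differ detectably between the cohorts. It lay between 642 CPM (N-7) and 3024 CPM (N-4) in controls (median 1249) and between 663 CPM (R-18) and 3460 CPM (R-13) in RhoC tumors (median 1369). The log2 fold change was 0.15 ± 0.33 (edgeR adjusted p = 0.817) with a 95% interval from -0.53 to 0.84. It was -0.13 ± 0.34 without the SCC tumors. Those had 2207 CPM (R-6), 3460 CPM (R-13) and 1636 CPM (R-14), a median 1.96 times that of the other tumors, compared with 12.7 times for *Itga2* and 8.05 times for *Itga3*.

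*Itgav* (ENSMUSG00000027087.11, chromosome 2, 83724397 to 83806916), the α chain of the Arg-Gly-Asp receptors, was 199 to 893 CPM in controls (median 443) and 395 to 1713 CPM in RhoC tumors (median 683). The highest tumor was R-2, of mixed histology, ahead of R-21 at 1076 CPM, and the lowest 4 tumors were controls. The difference was 0.60 ± 0.32 (edgeR adjusted p = 0.283), and 10 of 12 RhoC tumors were above the control median. Unlike *Itga2* and *Itga3*, it was 0.60 ± 0.36 without the SCC tumors. Leaving out R-2 gave 0.43 ± 0.29. R-2 also had the highest sum of 4 T cell markers, 24.4 CPM, where the other tumors had at most 12.5 CPM and the SCC tumors 0.160 to 2.16 CPM. The log2 CPM of *Itgav* had a Pearson r of 0.46 (Spearman 0.49) with the log2 T cell sum over 21 tumors, and 0.77 over the 18 without SCC. All 4 markers (*Cd3e*, *Cd3d*, *Cd3g* and *Cd8a*) had counts in each tumor outside SCC, and the part of T cells in the *Itgav* level was not tested. *Gm13684* and *Dnmt3l-ps1* overlap the span of *Itgav* in the annotation, as *Mir6963* does that of *Itga5*.

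*Itgb3* (ENSMUSG00000020689.4, chromosome 11, 104608000 to 104670476) codes for the β3 chain, which pairs with αv in many cells and with αIIb in platelets. It had the widest range of the 10. Controls had 12.7 CPM (N-1) to 243 CPM (N-8), with a median of 89.0. RhoC tumors had 23.6 CPM (R-6) to 2861 CPM (R-1), with a median of 208, and 6 of 12 were above the highest control. These were R-1, R-16 (558 CPM), R-21 (371 CPM), R-18 (334 CPM), R-15 (267 CPM) and R-2 (246 CPM). The SCC tumors were the 3 lowest of the RhoC cohort, at 23.6 CPM (R-6), 64.6 CPM (R-14) and 68.4 CPM (R-13). The log2 fold change was 2.19 ± 0.75 (edgeR adjusted p = 0.128) with all tumors, 1.15 ± 0.55 without R-1 (adjusted p = 0.254), 2.56 ± 0.69 without the SCC tumors (adjusted p = 0.137) and 1.503 ± 0.504 without both (adjusted p = 0.232). *Itga2b*, the αIIb chain, was between 1.16 and 5.004 CPM in all tumors. In R-1 the summed fibroblast (175 CPM), macrophage (204 CPM), endothelial (221 CPM) and platelet (5.26 CPM) markers were inside the control ranges, as was the skeletal muscle sum of 327 CPM, which was far above the RhoC median of 0.850 CPM. The basal sum of 4.55 CPM in R-1 was the lowest of the 21 tumors. Over all tumors the log2 CPM of *Itgb3* had a Pearson r of -0.61 with the log2 basal sum (Spearman -0.54), and the part of these cells in its level was not tested.

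R-1 stood out for the region as well as for the gene, a comparison chosen after its *Itgb3* value was seen. Within 1 Mb of *Itgb3*, 12 other genes were tested and had a mean log2 CPM above 0. In R-1 7 of these 12 were more than 1 log2 unit above their own median over the 21 tumors, and the median of the 12 was 1.65. *Itgb3* itself was 4.58 log2 units above its median there. *Kansl1* (2.04), *Cdc27* (1.89), *Mettl2* (2.37), *1700052K11Rik* (2.44), *Tlk2* (1.51) and *Tanc2* (1.78) were among the 7, whereas *Mrc2*, which lies between the last pair, was at 0.00 and *Arf2* at 0.15. R-21 also had 7 such genes, with *Itgb3* at 1.64, and R-16 had 4, with *Itgb3* at 2.23. R-2 had 5, among them *Gosr2* at 3.96, *Nsf* at 4.25 and *Arf2* at 4.67, but its *Itgb3* was at 1.04. No other tumor had more than 1. *Itgb3* starts 6.20 Mb beyond the start of *Erbb2* on chromosome 11, the locus of the Neu allele. *Erbb2* itself was 1049 CPM in R-1, 0.34 log2 units above its median, 263 CPM in R-2, 543 CPM in R-21 and 1690 CPM in R-16. DNA copy number was not measured in these data.

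**Figure D4:**
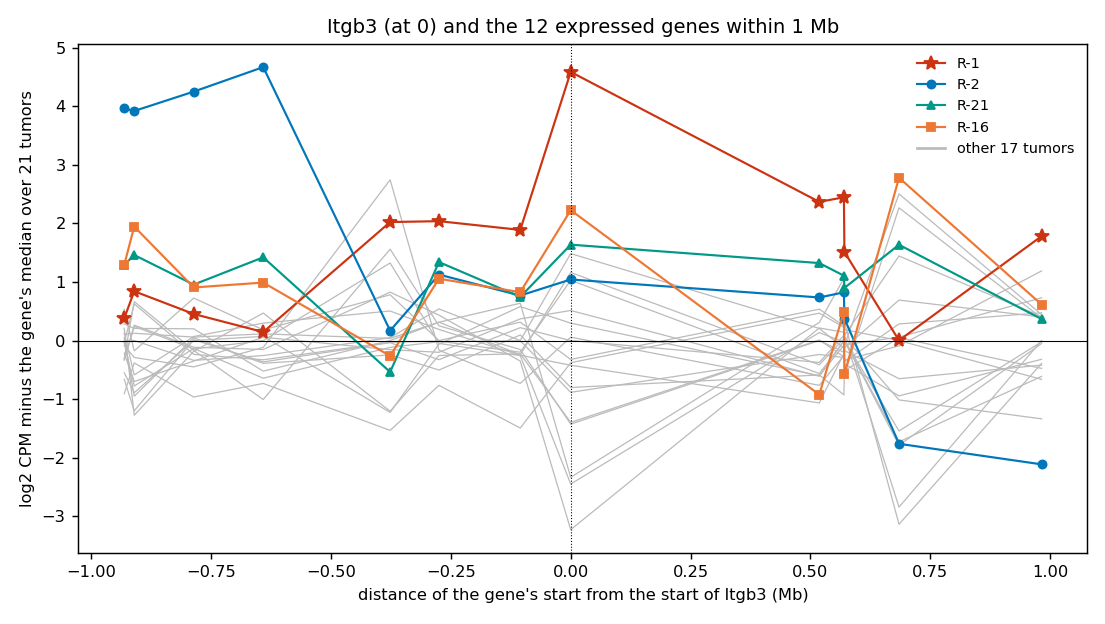
Log2 CPM of *Itgb3* and the 12 expressed genes within 1 Mb, minus each gene's median over 21 tumors, against the distance of the gene's start from that of *Itgb3* in Mb. R-1 is high at *Itgb3* (4.58) and at most of its near neighbors, R-2 is high at the left edge (up to 4.67) and the grey lines are the other 17 tumors.

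The remaining αv partners overlapped between the cohorts. *Itgb5* (ENSMUSG00000022817.15, chromosome 16, 33829665 to 33949338), the β chain of a vitronectin receptor, was 79.8 to 312 CPM in controls (median 164) and 149 to 469 CPM in RhoC tumors (median 195). The 4 lowest tumors were controls, and the highest were R-15 (469 CPM) and R-16 (377 CPM). Its difference was 0.61 ± 0.26 (unadjusted p = 0.0278, edgeR adjusted p = 0.195), and 0.72 ± 0.28 without the SCC tumors. R-15 and R-16 both came from mouse P497, without which it was 0.38 ± 0.26, and with counts summed per mouse it was 0.44 ± 0.25. *Itgb5* and *Itgb3* had a Pearson r of 0.61 (Spearman 0.60) over 21 tumors.

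*Itgb6* (ENSMUSG00000026971.15, chromosome 2, 60598292 to 60722643) and *Itgb8* (ENSMUSG00000025321.14, chromosome 12, 119158022 to 119238802) code for the epithelial β6 chain and for β8, both of which with αv release active TGF-β from its latent complex. *Itgb6* was 2.52 to 54.1 CPM in controls (median 29.6) and 5.04 to 77.1 CPM in RhoC tumors (median 33.0). N-3 (2.52 CPM, from 174 counts), R-10 (5.04 CPM) and R-21 (8.65 CPM) were far below the others, none of which was under 17.7 CPM. The difference was 0.23 ± 0.42 (edgeR adjusted p = 0.783). *Itgb8* was 45.7 CPM (N-3) to 987 CPM (N-4) in controls (median 189) and 46.7 CPM (R-10) to 690 CPM (R-2) in RhoC tumors (median 168). It was the only member with a negative log2 fold change, -0.39 ± 0.52 (edgeR adjusted p = 0.688), which became 0.17 ± 0.48 without N-4. *Itgb6* and *Itgb8* had a Pearson r of 0.57 (Spearman 0.51), and N-3 and R-10 were the 2 lowest tumors for both.

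**Figure D5:**
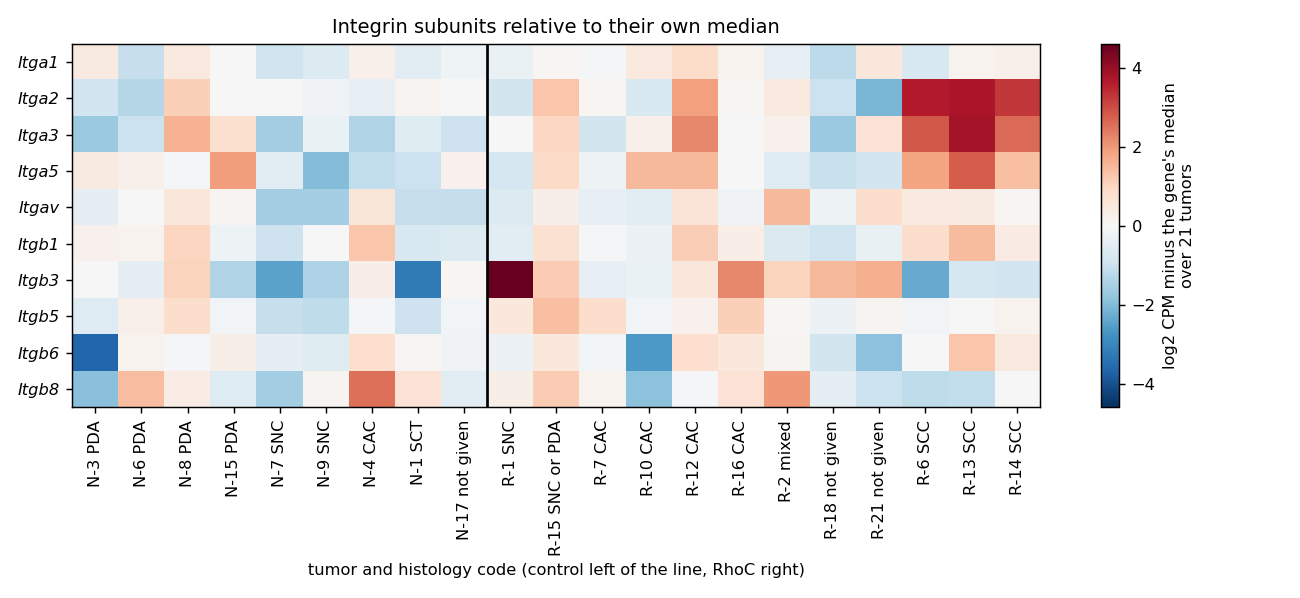
Log2 CPM of each subunit minus its own median over 21 tumors (red above, blue below), with control tumors left of the line and RhoC tumors right of it, ordered by histology code. *Itga2* and *Itga3* are reddest in the 3 SCC columns, *Itgb3* in R-1, and *Itgb6* is bluest in N-3.

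How the members ran together across the 21 tumors was described with the Pearson r of their log2 CPM, without a test, since the points share libraries, mice and histology. The highest of the 45 pairs was *Itga2* with *Itga3* (r = 0.82, Spearman 0.69), followed by *Itga3* with *Itga5* (r = 0.70) and *Itga2* with *Itga5* (r = 0.66). Without the 3 SCC tumors these were 0.55, 0.45 and 0.35 over 18 tumors. *Itgb6* with *Itgb8* went from 0.57 to 0.73. The lowest pair was *Itga5* with *Itgb8* (r = -0.39), and *Itga2* with *Itgb3* had r = -0.33.

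Of the 14516 tested genes with a mean log2 CPM above 0, *Lama3* (r = 0.92) and *Acsbg1* (0.92) were most like *Itga2*, and *Ercc1* (0.90) was among the 2 most like *Itga3*. *Lama3* codes for a chain of laminin-332, a basement membrane ligand of these receptors. For *Itga5* they were *Fscn1* (0.96), an actin-bundling protein, and *Kdelr3* (0.91). *Itgav* was nearest to *Cd47* (0.86), a membrane protein that binds αvβ3, and *Havcr2* (0.83). *Itgb1* was nearest to *Rbms1* (0.91) and *Slc25a24* (0.88), *Itgb3* to *Nacc2* (0.84) and *Comp* (0.83), and *Itgb5* to *9530068E07Rik* (0.88) and *Adamdec1* (0.87). *Itgb6* was nearest to *Acpp* (0.84) and the tight junction gene *Cldn4* (0.84), *Itgb8* to *Zc2hc1a* (0.90) and *Inpp1* (0.86), and *Itga1* to *St3gal4* (0.78) and *Nectin3* (0.75). For *Itga2* and *Lama3* the r was 0.84 without the SCC tumors.

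Around these receptors, 9 lists held 116 genes of their ligands, partners and signaling, 114 of them tested. By edgeR's adjusted p, 0 were called, against 0.223% of all genes. At an unadjusted p under 0.05, 20 of the 114 were higher, where 10.5% of all genes tested were, and 2 were lower, where 9.93% of all genes were. Without the SCC tumors 8 were higher and 2 lower, where 8.06% of all genes were higher. DESeq2 called 6, all higher, where it called 3.66% of all genes higher. Of 7 laminin chains, 4 were higher at an unadjusted p under 0.05 and the median log2 fold change was 0.96. *Lama3* was 51.0 ± 46.1 CPM (SD) in 9 controls and 585 ± 861 CPM in 12 RhoC tumors (log2 fold change 3.52 ± 1.16 SE, edgeR adjusted p = 0.118). In the SCC tumors *Lama3* was 1295 to 2476 CPM, and the other tumors lay between 2.41 and 1326 CPM, and without the SCC tumors its difference was 1.81 ± 1.02. Of 7 collagens, 1 was higher by that rule and the median was 0.61, with *Col5a1* at 0.95 ± 0.45 (adjusted p = 0.235) and *Col1a1* at 0.97 ± 0.48 (0.254). Of 13 ligands with an Arg-Gly-Asp site or a like role, 1 was higher and the median was 0.41. This was *Tnc*, tenascin C, at 429 ± 360 CPM in controls and 1693 ± 1609 CPM in RhoC tumors (1.98 ± 0.66, adjusted p = 0.120), and the next by p was *Edil3* (1.81 ± 0.90, 0.257). The RhoC values of *Edil3* averaged 82.9 ± 183 CPM, with 654 CPM in R-12, and its DESeq2 adjusted p was 0.765.

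Of the 9 genes of latent TGF-β, 2 were higher at an unadjusted p under 0.05 and the median was 0.27. *Tgfb1*, the cytokine, was 53.3 ± 22.7 CPM in controls and 110 ± 57.7 CPM in RhoC tumors (1.04 ± 0.29, edgeR adjusted p = 0.0821), and *Ltbp4*, which tethers it to the matrix, differed by 1.05 ± 0.47 (0.214). *Tgfb1* was 122 to 246 CPM in SCC and at most 134 CPM elsewhere (median 58.5), and without the SCC tumors the differences were 0.69 ± 0.25 for *Tgfb1* and 0.63 ± 0.46 for *Ltbp4*. The other integrin subunits had a median of -0.02 over 16 tested, with 2 higher by that rule. One was *Itgb4*, the β4 chain of the hemidesmosome, at 296 ± 161 CPM in controls and 1156 ± 978 CPM in RhoC tumors (1.96 ± 0.48, edgeR adjusted p = 0.0606). It was 1193 to 3510 CPM in SCC and up to 1619 CPM elsewhere (median 409 CPM), and the difference without the SCC tumors was 1.35 ± 0.42 (edgeR adjusted p = 0.162). The other was *Itgae* (2.57 ± 0.82, 0.111), whose RhoC values averaged 11.6 ± 27.5 CPM, with 98.5 CPM in R-2.

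Of 27 adhesion adaptors, 5 were higher at an unadjusted p under 0.05 and the median was 0.14, with *Pxn*, paxillin, at 0.49 ± 0.19 (edgeR adjusted p = 0.169) and *Flna*, filamin A, at 0.71 ± 0.30 (0.193). The other 3, named after their values were seen, were the kindlin gene *Fermt1* (1.40 ± 0.61), *Parvb* (1.18 ± 0.50) and the talin gene *Tln1* (0.44 ± 0.19). Without the SCC tumors these 3 were 1.01 ± 0.65, 0.12 ± 0.34 and 0.38 ± 0.20, while *Pxn* was 0.32 ± 0.19 and *Flna* 0.42 ± 0.29. *Parvb* was 34.6 to 110 CPM in SCC and at most 28.9 CPM in every other tumor. Of 15 kinases and scaffolds, 4 were higher and 1 lower, beside the 10.5% and 9.93% of all genes. *Yes1*, a Src family kinase, was the lower, by -0.46 ± 0.15 (0.117), and *Crkl* was higher by 0.30 ± 0.12 (0.170). The other higher ones, again named after their values were seen, were *Ptk2b* (0.89 ± 0.36), *Git1* (0.42 ± 0.19) and *Git2* (0.27 ± 0.12). *Ptk2b* was 118 to 218 CPM in SCC and at most 106 CPM elsewhere, and its difference without the SCC tumors was 0.43 ± 0.33. Of 7 tested genes of integrin trafficking, 0 passed at an unadjusted p of 0.05, and the nearest were *Rab4a* (-0.68 ± 0.33, 0.254) and *Rab25* (0.54 ± 0.27, 0.263).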

How the data were processed

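Mammary tumor RNA was isolated per the labels with a column kit, and libraries were made with a stranded total RNA kit after removal of ribosomal RNA. The authors trimmed reads with Trim Galore 0.5.0, aligned them to GRCm38.p6 with STAR 2.6.0c and counted them per gene with HTSeq 0.6.1p2, keeping unique alignments and discarding reads on more than 1 gene. Whether counting used the strand and the annotation release are not given in the sources used here. The deposited counts are whole numbers without normalization, 1 table per tumor. The authors also deposited FPKM values beside their own DESeq2 and edgeR fold changes and p-values. FPKM was used only to compare levels between genes, and the authors' comparisons were not used. Gene names and positions came from the deposited table (23203 genes) and further names from a reference table (26177 genes).

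Counts were analysed in R 4.3.3 with edgeR 4.0.16, on 9 control and 12 RhoC tumors without covariates. Libraries were scaled by TMM, genes with low counts were dropped by filterByExpr within cohorts, and the quasi-likelihood test was applied. A call required a Benjamini-Hochberg adjusted p under 0.05, adjusted over every gene tested. Standard errors (SE) were taken as the absolute log2 fold change over the square root of its F statistic. CPM is the count per 1000000 of the TMM-scaled library. Log2 CPM used a prior count of 2. At these depths every member had at least 174 counts in each tumor. Alternatives were DESeq2 1.42.0, limma 3.58.1 voom with mouse as a random effect (within-mouse correlation 0.27), other filters and scalings, counts summed per mouse, and fits without named tumors or each tumor in turn. The edgeR, DESeq2 and voom fits of all tumors were tested on simulated counts, drawn without correlation within mice. The other alternatives were not tested in this way. Members and lists were chosen with earlier results of these data known. Results for 1 of the lists and for 1 further gene are not reported here. Genes named beside the members were those passing the adjusted p or, where a list had none, its 2 with the smallest p, and for each member the 2 genes most like it with a mean log2 CPM above 0.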

Additional observations from a re-analysis of the deposited data

Results flagged for a closer look

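*Itgb6*, the epithelial β chain that pairs with αv, was 2.52 CPM in the control tumor N-3, where the next lowest control had 21.4 CPM and the median of 9 controls was 29.6 CPM. Its gap to the next tumor was 0.696 of the whole log2 range of the controls, above the limit of 0.493 for 9 samples. Chance sets off this rule in about 1 in 20 groups, and the 10 subunits were each tried in the controls. N-3 also had the lowest *Itgb8* of the controls (45.7 CPM), its luminal epithelial marker sum of 1630 CPM was the lowest of the controls, and its skeletal muscle marker sum was 375 CPM. The part of these markers in the *Itgb6* level was not tested. RhoC tumors R-10 (5.04 CPM) and R-21 (8.65 CPM) were also low. That cohort has too many samples for the rule.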

How the results depend on the processing

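The count of called members was 0 in edgeR on all tumors and in 30 of the 31 other settings planned, and also in 3 fits chosen after seeing the data (without the SCC tumors and R-1, and the pair of fits on 8 tumors described next). DESeq2 called 3, among 1206 called of all 19315 genes. The 21 fits that each left out 1 tumor called 0 to 0, where 14 to 346 of all genes were called. Some settings called almost no gene, so a 0 there says little about the members. Without mouse P497 3 of 19184 genes were called, with counts summed per mouse 3 of 19326, and under voom 3 of 19315. On only the tumors coded poorly differentiated or solid nodular, 0 of 21333 genes were called. Control and RhoC tumors came from different mice, but 4 tumor numbers occur in both cohorts. With that number as a replicate block 0 members were called on these 8 tumors, and 0 without the block. Each of these fits called 0 of all 18939 genes, so the count of members could not differ from 0. Deviations of same-numbered tumors from their cohort means had r from -0.24 to 0.022 over genes, and none of the 4 controls correlated best with its own number, so the numbers were not used as pairs. *Itgb6* was -0.032 with the block and -0.028 without it, and *Itgb8* was 0.21 with the block.

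A sign change occurred for 4 members, none of them called in any setting. With tumors coded as poorly differentiated (PDA), solid nodular (SNC) or "SNC or PDA" alone (6 controls, R-1 and R-15), *Itga5* was -0.18 and *Itgb8* 0.71 on the log2 scale, *Itgb3* was 4.07 ± 0.90, *Itgb5* 1.15, *Itga2* 0.57, *Itga3* 0.41 and *Itgav* 0.16. *Itgb1* was -0.11 with counts summed per mouse, -0.13 without mouse P497, -0.13 without the SCC tumors and -0.067 without these and R-1. *Itgb6* was -0.094, -0.20, -0.018 and -0.00050 in the same 4 settings. Leaving out 1 tumor moved *Itgb1* between -0.0086 (without R-13) and 0.36 (without N-4), *Itgb8* between -0.73 (without R-2) and 0.17 (without N-4), *Itga2* between 1.64 and 2.23, *Itga3* between 1.41 and 2.39, and *Itgb3* between 1.15 (without R-1) and 2.51. Without mouse P497 *Itga2* was 1.39 and *Itga3* 1.27. Voom with mouse as a random effect gave 0.66 for *Itga2*, 1.31 for *Itga3* and 1.62 for *Itgb3*. The cause of these shifts was not tested.

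Cohort and histology cannot be told apart for SCC, since the 3 tumors with that code were all RhoC tumors, and N-17, R-18 and R-21 have no code. The SCC tumors came from 2 mice. Against the 7 controls with the *Gata4* allele alone, 0 members were called, where 438 of all 19699 genes were. The largest SE among the members was 0.75 for *Itgb3*, and the lowest count of any member was 174.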
